A study of Mus musculus with 6 samples.

Results

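The genes described here are 9 factors and markers of the germinal centre reaction: Bcl6, Batf, Mybl1, S1pr2, Rgs13, Gcsam, Fas, Ung and Basp1. They were taken by gene symbol from a comparison of B lineage cells in 2 mouse tissues, and all 9 were measured, by 1 probe set each, among 19938 genes. Cells that fluoresced in mice with a green reporter of Rag2, whose product helps to cut antigen receptor genes for recombination, were sorted from small intestinal lamina propria (the layer of connective tissue below the epithelium) and from bone marrow. Both tissues came from mice of the strain labelled RAG2-GFP/129Sve, 17 to 25 days after birth, kept under specific-pathogen-free conditions with no other treatment named in the labels. Each experiment pooled 8 to 12 mice, and each tissue gave 3 independent pools with 1 array each, so the spread given below is that between pools. The reporter marks cells that recombine their receptor genes or did so recently, and the sort does not separate stages within this population.

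A germinal centre forms in a lymphoid follicle when mature B cells respond to antigen with help from T cells. The cells divide, mutate their antibody genes and are selected, and the repressor BCL6 holds this state. In the gut, germinal centres of Peyer's patches yield cells that make IgA, whereas cells that still recombine their receptor genes belong to a much earlier stage. The surface enzyme gene Cd38 was not analysed here.

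Values are log2 RMA values as deposited, in which 1 unit is a 2-fold difference in signal, and differences are lamina propria minus bone marrow. In sorted pools, fewer cells of a type and less RNA per cell cannot be told apart. The files give no call of whether a probe set was above background. On every array Rgs13, Fas, Gcsam and Mybl1 lay below the median of all probe sets (5.34 to 5.48), and the other 5 genes lay above it. Of the genes that define the labelled cells, Vpreb1, a part of the surrogate light chain, averaged 11.77 ± 0.14 in lamina propria pools and 11.82 ± 0.03 in marrow pools (n = 3 each, SD). Over 11 measured B lineage markers the summed linear signal was 11804 to 12875 in lamina propria pools and 12628 to 17110 in marrow pools. In pool 3 their median difference was -0.16. Of all genes, 67.6% had a positive difference and 7.27% lay lower in every lamina propria pool than in any marrow pool. Of genes at marrow levels of 8 to 9 and of 11 to 12, like those named next, 22.1% and 9.86% did so. Of the 11 markers, 10 had a negative difference, and 3 lay lower in every lamina propria pool. They were Rag2, the gene of the sorting reporter, at 5.83 ± 0.21 in lamina propria pools and 8.18 ± 0.37 in marrow pools (n = 3 each, SD; -2.11 in pool 3), its partner Rag1 at a difference of -1.05 (-0.55 in pool 3) and Dntt, which adds nucleotides at the joints, at -0.51 (-0.65 in pool 3).

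The lamina propria pools were not alike, which bears on every gene below. Across genes, pool 3 correlated with the marrow arrays at r = 0.954 to 0.966, whereas pools 1 and 2 did so at 0.766 to 0.828. Genes are not independent replicates. Genes with marrow levels of 4 to 5 lay above the marrow mean in pools 1 and 2, with medians of 0.52 and 0.54, whereas those with levels of 8 to 9 had medians of -1.38 and -1.55. In pool 3 these medians were 0.01 and -0.04. Values of pool 3 alone are therefore given beside the members and lists.

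Of the 9 germinal centre genes, 8 had a higher mean in the lamina propria and 1, Mybl1, a lower one. None passed the test over all genes (limma, Benjamini-Hochberg adjusted p under 0.05), and neither did any other gene: 0% of all genes were called higher and 0% lower. At an unadjusted p under 0.05, 1 member was higher, Rgs13, and none lower, against 5.53% and 8.15% of all genes. Batf, Rgs13 and S1pr2 lay higher in every lamina propria pool than in any marrow pool, 3 of 9 against 14.8% of all genes, and no member lay lower in all pools, against 7.27%. S1pr2 lost this separation when arrays were centred on their medians, which left 2 of 9, against 15.3% of all genes with this centring. The median difference of the 9 genes was 0.38, against 0.22 over all genes, of which 67.6% had a positive difference. In pool 3 alone the median of the 9 genes was 0.03, with 4 above all marrow pools (24.8% of all genes), 1 below all of them (26.7%) and 4 inside their range.

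**Figure D1:**
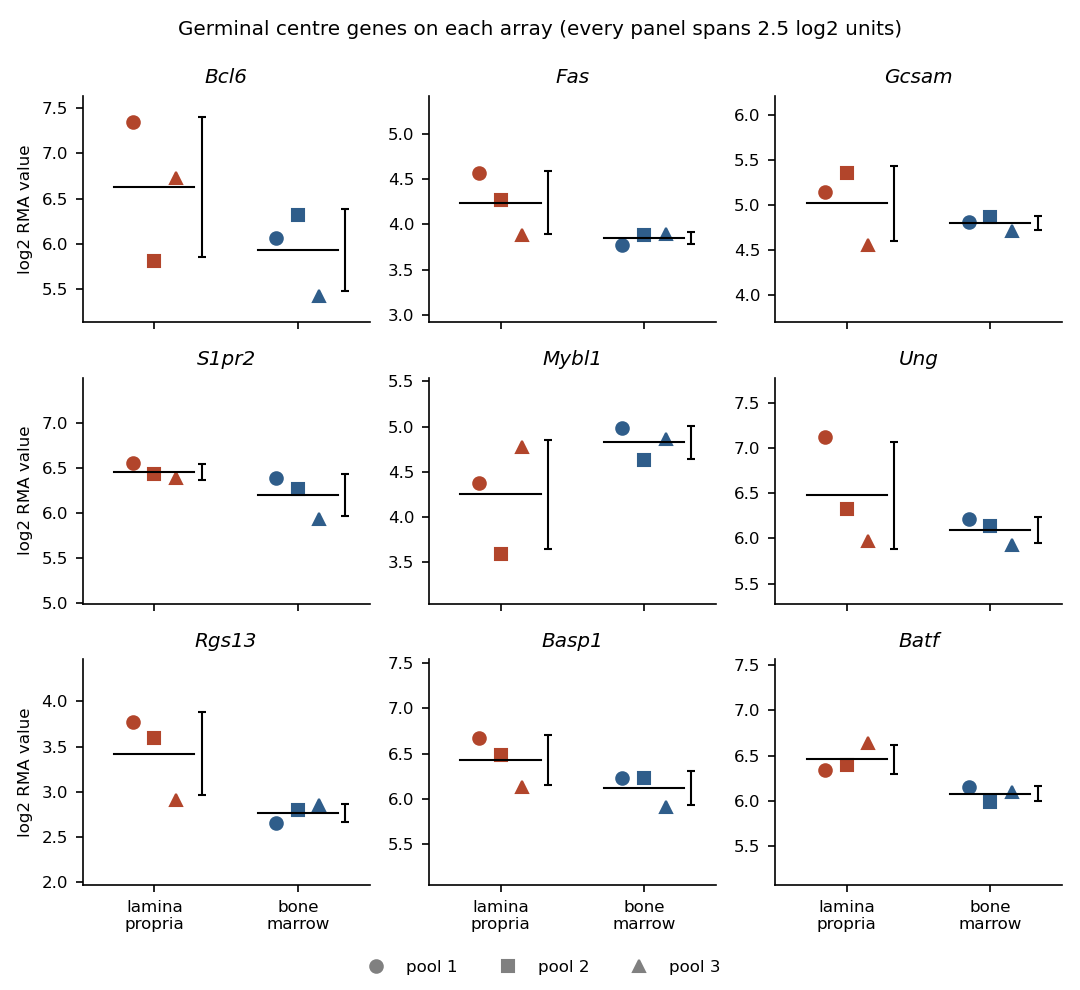
Log2 RMA value of each germinal centre gene on every array, with lamina propria pools left (red) and bone marrow pools right (blue) and the pool number given by the symbol. Horizontal lines are means and bars the SD of 3 pools. Batf separates the tissues in all pools, while the lamina propria pools of Bcl6, Mybl1 and Ung each span more than 1 unit.

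Bcl6 encodes the zinc finger repressor that defines germinal centre B cells. Its values were 7.35, 5.81 and 6.73 in lamina propria pools 1, 2 and 3, against 6.06, 6.31 and 5.42 in the marrow pools. Pools 1 and 3 of the lamina propria lay above all marrow pools, and pool 2 lay between them. The mean was 6.63 ± 0.77 in lamina propria pools and 5.93 ± 0.46 in marrow pools (n = 3 each, SD). The difference of 0.69 (95% interval -0.29 to 1.68, limma adjusted p = 0.375) was the largest among the members, and it was smaller than the range of 1.54 within the lamina propria. Without lamina propria pool 1 it was 0.34, without pool 2 it was 1.10, and without marrow pool 3 it was 0.44. In pool 3 alone, the lamina propria array that resembled the marrow most, it was 0.80. Of genes at marrow levels of 5 to 6, where Bcl6 lies, 24.4% also lay above all marrow pools in pool 3. Their median difference was 0.295, with 0.44, 0.40 and -0.02 in pools 1, 2 and 3.

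BCL6 binds DNA motifs of the form TTCNNNGAA, a form that STAT factors also recognise, and it is known to act on its own gene. The upstream sequences of Bcl6 are shown because Bcl6 had the largest difference and is itself the factor. RefSeq lists 2 start sites for it on the minus strand of GRCm38.p6, and the 250 bases before each are chr16:23988853-23989102 and chr16:23981284-23981533. They are given 5′ to 3′ with matches to TTCNNNGAA in capitals.
Bcl6, outer start: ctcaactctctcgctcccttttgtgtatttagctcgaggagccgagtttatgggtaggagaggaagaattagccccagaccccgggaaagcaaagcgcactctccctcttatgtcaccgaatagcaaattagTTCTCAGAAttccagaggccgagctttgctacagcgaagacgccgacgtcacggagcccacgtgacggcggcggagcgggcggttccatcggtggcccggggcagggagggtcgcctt
Bcl6, inner start: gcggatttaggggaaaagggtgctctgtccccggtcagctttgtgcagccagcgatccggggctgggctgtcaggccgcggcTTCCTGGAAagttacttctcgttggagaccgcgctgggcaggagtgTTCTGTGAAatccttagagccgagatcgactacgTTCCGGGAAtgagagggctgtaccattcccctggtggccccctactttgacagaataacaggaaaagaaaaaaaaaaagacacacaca

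The outer start had 1 match, TTCTCAGAA, whose first base lies at position -118, counted back from the start site. The inner start had 3, with first bases at -168, -122 and -88, of which TTCCTGGAA also matches the narrower BCL6 form TTCCTNGAA. TTCNNNGAA, which reads the same on both strands, occurred in 8.3% of the 32851 promoter windows of the table (300 bases, from 250 before to 50 after a start), and TTCCTNGAA, searched on both strands, in 1.59%. At least 3 matches to TTCNNNGAA occurred in 11 windows, or 0.0335%. A match describes the letters and is not a measured binding site, and the array does not tell the 2 starts apart.

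Batf encodes a small AP-1 type factor that pairs with JUN proteins and is needed for class switching in B cells and for follicular helper T cells. Its values were 6.34, 6.39 and 6.64 in the lamina propria pools, against 6.15, 5.99 and 6.10 in the marrow pools. Every lamina propria pool exceeded every marrow pool, with a gap of 0.19 between the closest ones. Its mean was 6.46 ± 0.16 in lamina propria pools and 6.08 ± 0.08 in marrow pools (n = 3 each, SD), a difference of 0.38 (95% interval -0.08 to 0.83, limma adjusted p = 0.359). In pool 3 alone the difference was 0.56, wider than in pools 1 and 2. Genes at marrow levels of 6 to 7, where Batf lies, had a median difference of -0.06. No match to TTCNNNGAA or to the AP-1 motif TGANTCA lay in the Batf window.

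Mybl1 encodes A-MYB, a MYB family activator found in dividing germinal centre B cells and in male germ cells. It was the only member with a lower mean in the lamina propria, at 4.38, 3.60 and 4.78 in pools 1, 2 and 3, against 4.99, 4.63 and 4.86 in the marrow pools. Pools 1 and 2 lay below all marrow pools and pool 3 lay inside their range. The means were 4.25 ± 0.60 in lamina propria pools and 4.83 ± 0.18 in marrow pools (n = 3 each, SD), a difference of -0.57 (95% interval -1.33 to 0.18, limma adjusted p = 0.363). Other genes at marrow levels of 4 to 5 had a median difference of 0.36, opposite in sign. Without lamina propria pool 2 the difference of Mybl1 was -0.25, and in pool 3 alone it was -0.05. Mki67, a marker of dividing cells, also had a lower mean, 7.02 ± 0.96 in lamina propria pools and 8.40 ± 0.76 in marrow pools (n = 3 each, SD). The tissues overlapped for Mki67, and in pool 3 it was at -0.37 from the marrow mean. Its difference was -1.39, and genes at marrow levels of 8 to 9, where Mki67 lies, had a median difference of -0.97. In pool 3 that median was -0.04.

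**Figure D2:**
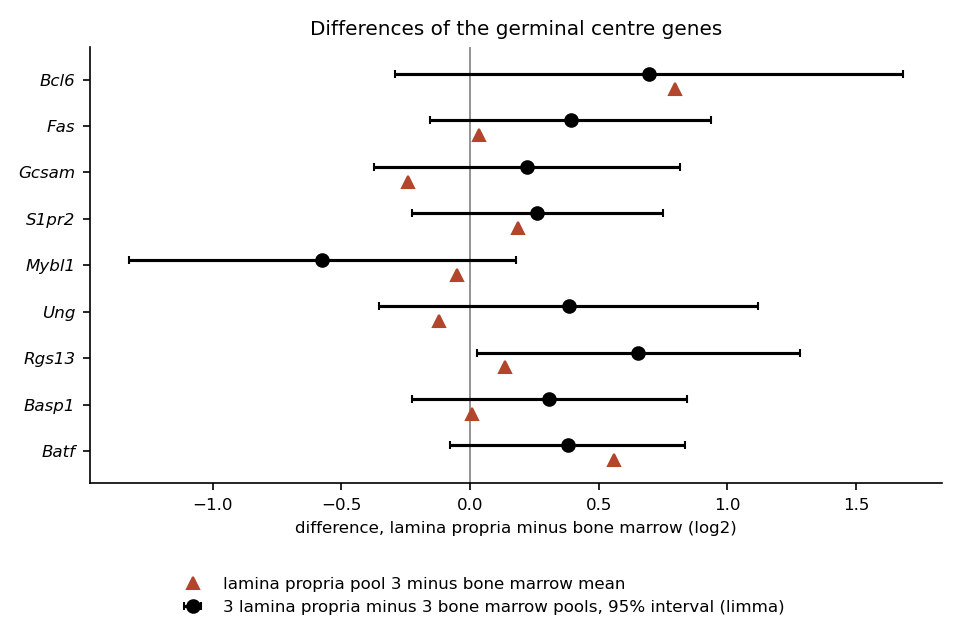
Difference of each germinal centre gene, lamina propria minus bone marrow in log2 units, with its 95% interval from limma (black, 3 pools per tissue), and pool 3 of the lamina propria minus the marrow mean (red triangles). Only the interval of Rgs13 leaves out 0, from 0.03 to 1.28, and in pool 3 the values of Bcl6 and Batf are 0.80 and 0.56.

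S1pr2 encodes a receptor for the lipid sphingosine 1-phosphate that keeps B cells inside the germinal centre. It had values of 6.56, 6.43 and 6.38 in the lamina propria pools, against 6.38, 6.27 and 5.94 in the marrow pools. The tissues did not overlap as deposited, but lamina propria pool 3 exceeded marrow pool 1 by only 0.0003, and with arrays centred on their medians they overlapped. The difference was 0.26 (95% interval -0.23 to 0.75, limma adjusted p = 0.439). It was 0.19 in pool 3 alone and 0.13 without marrow pool 3.

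Rgs13 encodes a regulator of G protein signalling that damps responses to chemokines. Its values were 3.77, 3.59 and 2.90 in the lamina propria pools, against 2.66, 2.79 and 2.85 in the marrow pools. All were low on the scale of the array, and the lowest lamina propria pool exceeded the highest marrow pool by 0.05. The means were 3.42 ± 0.46 in lamina propria pools and 2.77 ± 0.10 in marrow pools (n = 3 each, SD), a difference of 0.65 (95% interval 0.03 to 1.28, limma adjusted p = 0.356). In pool 3 alone the difference was 0.14, against 1.00 and 0.83 in pools 1 and 2. Genes at marrow levels of 2 to 3 had medians of 0.32 and 0.45 in pools 1 and 2 and 0.03 in pool 3. Without lamina propria pool 3, Rgs13 passed at a difference of 0.91 (limma adjusted p = 0.0186), as did Fas, in a fit that called 24.1% of all genes higher and 12.1% lower.

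Rgs13 is also made by mast cells and by tuft cells of the gut epithelium, so markers of these cells are given beside it. Positive differences were common, in 67.6% of all genes, and 14.8% lay higher without overlap. Of 12 mast cell markers 11 had a positive difference, 4 of them with no overlap, and their summed linear signal was 393 to 445 in lamina propria pools and 315 to 353 in marrow pools. Kit, the mast cell marker with the highest lamina propria mean, is also made by early progenitors. It averaged 6.67 ± 1.02 in lamina propria pools and 6.65 ± 0.27 in marrow pools (n = 3 each, SD), with 5.65, 6.67 and 7.69 in pools 1, 2 and 3. The highest mast cell sum, 445, was that of pool 3, where Kit weighed most in it. There Kit stood 1.04 above the marrow mean, while the median difference of the 12 markers was 0.02. All 11 markers of tuft cells and other epithelium had a positive difference, 5 with no overlap. They summed to 577 to 759 in lamina propria pools and 449 to 488 in marrow pools, and their median difference in pool 3 was 0.23. Krt8, an epithelial keratin, averaged 7.61 ± 0.27 in lamina propria pools and 7.16 ± 0.21 in marrow pools (n = 3 each, SD). The RMA scale has no zero at which a marker could be called absent, and the part of these cells in the Rgs13 values was not tested.

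Gcsam encodes a signalling adaptor of germinal centre B cells that acts on B cell receptor signalling and on cell movement. Its values were 5.14, 5.36 and 4.56 in the lamina propria pools, against 4.82, 4.86 and 4.71 in the marrow pools. Pools 1 and 2 lay above all marrow pools and pool 3 lay below all of them. The difference was 0.22 (95% interval -0.37 to 0.82, limma adjusted p = 0.558), under the range of 0.80 within the lamina propria, and in pool 3 alone it was -0.24. Without pool 2 it was 0.05 and without pool 3 it was 0.45. The direction of Gcsam thus turned with the pools included.

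Fas encodes the death receptor that germinal centre B cells carry at high density. It had values of 4.57, 4.27 and 3.88 in the lamina propria pools, against 3.77, 3.88 and 3.90 in the marrow pools. Pools 1 and 2 lay above the marrow pools and pool 3 lay among them. The difference was 0.39 (95% interval -0.16 to 0.94, limma adjusted p = 0.372). It was 0.03 in pool 3 alone and 0.22 without pool 1, and without pool 3 it was 0.57 and passed (limma adjusted p = 0.043). Genes at marrow levels of 3 to 4 had medians of 0.44 and 0.53 in pools 1 and 2, beside 0.72 and 0.42 for Fas.

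The upstream sequence of Fas is shown because it was the other member with a match to TTCNNNGAA and the only one with a match to TGANTCA, the motif of BATF and JUN dimers, which occurred on either strand in 7.81% of windows. The 250 bases before its start are chr19:34290409-34290658 on the plus strand of GRCm38.p6, from RefSeq, with both matches in capitals.
Fas: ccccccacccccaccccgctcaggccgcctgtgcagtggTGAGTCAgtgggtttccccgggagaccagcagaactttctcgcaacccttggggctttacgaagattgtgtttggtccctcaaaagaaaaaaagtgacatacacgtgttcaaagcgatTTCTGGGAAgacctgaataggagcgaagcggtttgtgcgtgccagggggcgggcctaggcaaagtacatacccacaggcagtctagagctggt

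The first base of TGAGTCA lies at -211 and that of TTCTGGGAA at -93 from the Fas start. Of the 9 member genes, 8 had a window in the table, which held 9 member windows in all.

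Ung encodes uracil DNA glycosylase, which removes uracil from DNA, both in antibody genes during class switching and hypermutation and where it was misplaced during replication in any dividing cell. Its values were 7.13, 6.33 and 5.97 in the lamina propria pools, against 6.21, 6.14 and 5.93 in the marrow pools. Pool 1 stood apart, pool 2 lay above the marrow pools and pool 3 lay among them. The difference was 0.38 (95% interval -0.35 to 1.12, limma adjusted p = 0.448). Without lamina propria pool 1 it was 0.06, without pool 3 it was 0.63, and in pool 3 alone it was -0.12.

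Basp1 encodes a membrane-bound protein first known from nerve endings that is also used as a germinal centre marker. It had values of 6.68, 6.49 and 6.13 in the lamina propria pools, against 6.23, 6.24 and 5.91 in the marrow pools. Pools 1 and 2 lay above all marrow pools and pool 3 lay among them, at 0.01 above the marrow mean. The difference was 0.31 (95% interval -0.23 to 0.84, limma adjusted p = 0.419), with 0.19 without lamina propria pool 1 and 0.20 without marrow pool 3. Of 8 markers of stroma and endothelium, which also make Basp1, 7 had a positive difference, 2 with no overlap (14.8% of all genes lay higher in this way), and their summed linear signal of 540.5 to 706 in lamina propria pools overlapped that of 630.1 to 705 in marrow pools. Pecam1, of endothelium and some blood cells, averaged 7.30 ± 1.14 in lamina propria pools and 8.43 ± 0.22 in marrow pools (n = 3 each, SD). In pool 3 the stroma and endothelium markers had a median difference of 0.03. The part of such cells in the Basp1 values was not tested.

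**Figure D3:**
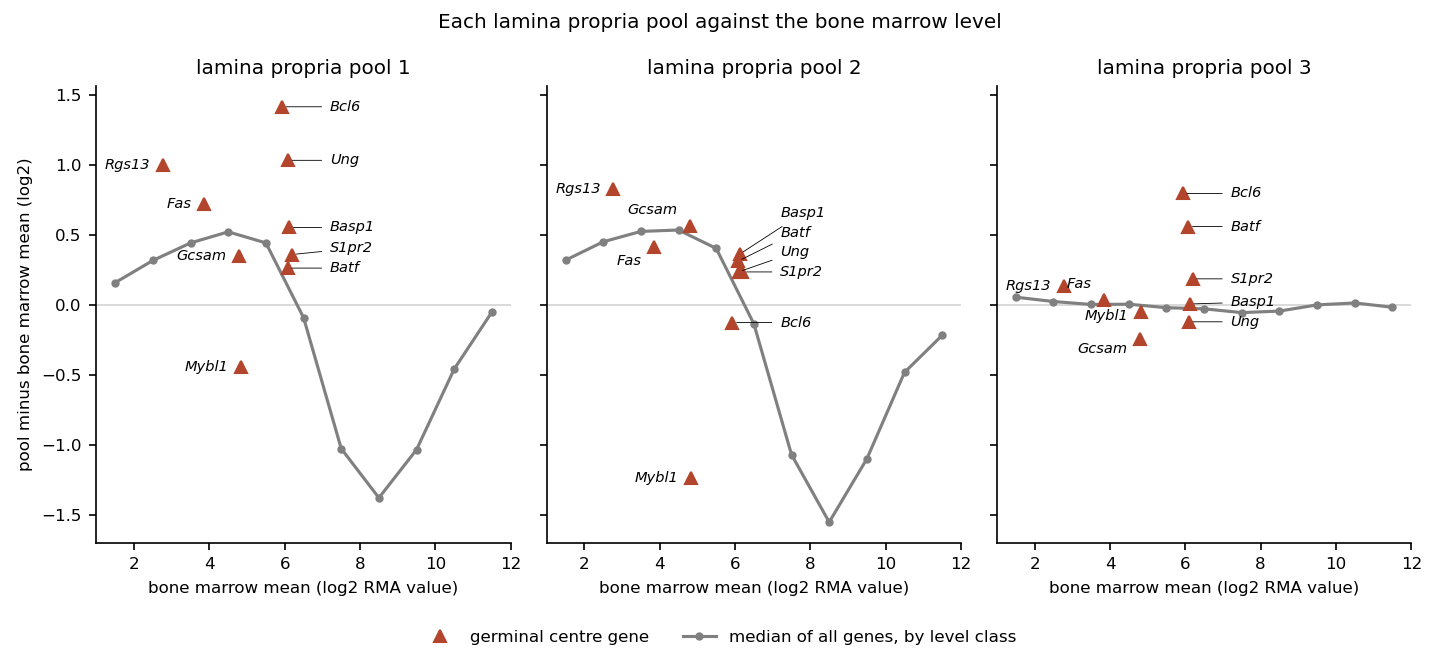
Each lamina propria pool minus the bone marrow mean in log2 units, plotted against the bone marrow mean in log2 RMA values, for the germinal centre genes (triangles) and as the median of all genes in classes 1 unit wide (grey line, classes of at least 20 genes). The grey line bends in pools 1 and 2 and is nearly flat in pool 3, where Bcl6 and Batf lie highest above it and Gcsam lies lowest.

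Quantile normalization and median centring changed the sizes but none of the directions of the 9 genes. Quantile normalization moved the median of all genes to 0.12, against 0.22 as deposited. The differences of Basp1, S1pr2 and Ung were then 0.54, 0.46 and 0.64, and those of Fas, Gcsam and Rgs13 were 0.14, 0.06 and 0.39. Bcl6, Batf and Mybl1 were at 0.82, 0.50 and -0.82, and again 8 of 9 differences were positive.

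The genes around the members were examined in 6 lists, 91 genes in all without the members, of which none passed (limma, adjusted p under 0.05). At an unadjusted p under 0.05, 7 were higher and 9 lower, against 5.53% and 8.15% of all genes. Without overlap, 14 were higher and 10 lower, against 14.8% and 7.27% of all genes, and the median difference was 0.11, against 0.22 over all genes.

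Partners of UNG in class switching and hypermutation mostly had lower means in the lamina propria. Of 12 measured, 8 had a negative difference, with a median of -0.86, 2 lower without overlap and 1 higher, against 7.27% and 14.8% of all genes. Mbd4, another glycosylase of damaged bases, averaged 6.41 ± 0.56 in lamina propria pools and 7.83 ± 0.28 in marrow pools (n = 3 each, SD), a difference of -1.42 (95% interval -2.17 to -0.67, limma adjusted p = 0.281). Apex1, the endonuclease that cuts where a glycosylase has removed a base, differed by -1.16 (95% interval -1.86 to -0.45, limma adjusted p = 0.318). Both also lay below all marrow pools in pool 3, at -0.79 and -0.60 from the marrow mean, where Ung was at -0.12. Msh6, of mismatch recognition, differed by -1.27 with overlap (-0.46 in pool 3), and Nuggc, a GTPase of germinal centre B cells, by 0.37 with none. In pool 3 the list's median was -0.13. All genes at marrow levels of 7 to 8, where Mbd4 and Apex1 lie, had medians of -1.02, -1.07 and -0.05 in pools 1, 2 and 3. Of these genes 22.3% lay lower without overlap, and 30.1% lay below all marrow pools in pool 3.

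Corepressors of BCL6 and other transcription factors of germinal centre B cells gave a median of -0.31, with 12 of 19 differences negative, 5 lower without overlap and 1 higher. Of all genes 7.27% lay lower and 14.8% higher in this way. At marrow levels of 7 to 8 and of 8 to 9, 22.3% and 22.1% of genes lay lower. At 5 to 6, where Hdac3 lies, 3.78% did so, and at 11 to 12, where Ezh2 lies, 9.86%. Ezh2, a histone methyltransferase of dividing and germinal centre B cells, averaged 10.34 ± 0.91 in lamina propria pools and 11.23 ± 0.11 in marrow pools (n = 3 each, SD). Hdac3, the deacetylase in BCL6 corepressor complexes, differed by -0.86 (95% interval -1.50 to -0.22, limma adjusted p = 0.356) and the deacetylase gene Hdac4 by 0.15, both without overlap. In pool 3 Ezh2 and Hdac3 were at -0.42 and -0.39, and the list's median was -0.04.

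Genes that BCL6 is known to repress, or that mark the exit from the germinal centre, had a median of 0.45, with 9 of 11 differences positive and 1 gene higher without overlap, against 67.6% and 14.8% of all genes. That gene was Prdm1, which encodes BLIMP-1, the repressor of the plasma cell state opposed to BCL6. It had 5.05, 4.34 and 4.89 in the lamina propria pools, against 4.27, 3.996 and 4.14 in the marrow pools, a difference of 0.62 (95% interval 0.05 to 1.20, limma adjusted p = 0.356). In pool 3 alone Prdm1 stood 0.75 above the marrow mean, beside 0.80 for Bcl6. Cd69, an early activation marker, averaged 10.51 ± 0.62 in lamina propria pools and 8.20 ± 1.75 in marrow pools (n = 3 each, SD), and marrow pool 2, at 10.01, overlapped the lamina propria pools. In pool 3 the list's median was 0.75, and 8 of its 11 genes lay above all marrow pools, against 24.8% of all genes. In pools 1 and 2 the medians were 0.06 and 0.20. Of 7 plasma cell markers, 5 had a positive difference and 2 lay higher without overlap, Prdm1 itself and Jchain, which joins the chains of secreted IgA and IgM. Jchain had 4.79, 3.83 and 4.64 in the lamina propria pools, against 3.24, 2.78 and 3.01 in the marrow pools. The difference was 1.41 (95% interval 0.71 to 2.11, limma adjusted p = 0.268), with 1.63 in pool 3. The summed linear signal of the 7 markers was 466 to 1260 in lamina propria pools and 617 to 817 in marrow pools, with Irf4 at 9.64, 6.05 and 9.22 beside 8.23 ± 0.27 as the mean of marrow pools (n = 3, SD). In pool 3 the median difference of the 7 plasma cell markers was 0.01. The part of plasma cells in the Prdm1 values was not tested.

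Receptors and surface molecules of the germinal centre had a median of 0.29, with 15 of 19 differences positive, 3 higher without overlap and none lower, against 67.6%, 14.8% and 7.27% of all genes, and a median of 0.18 in pool 3. The share without overlap was thus near that of all genes. Cd83, a marker of light zone B cells, averaged 5.68 ± 0.22 in lamina propria pools and 5.04 ± 0.17 in marrow pools (n = 3 each, SD), a difference of 0.63 (95% interval 0.13 to 1.14, limma adjusted p = 0.356), and stood 0.71 above the marrow mean in pool 3. Il21r, the receptor for a cytokine of follicular helper T cells, differed by 0.34 and Cxcr4, the receptor that draws cells to the dark zone, by 0.03. The T cell markers, which a sort holding helper T cells would carry, had a positive difference in all 10 measured, 4 with no overlap. They summed to 354 to 516.5 in lamina propria pools, with 354 in pool 3, and to 331 to 348 in marrow pools. In pool 3 their median difference was 0.0003. There 4 lay above all marrow pools and 4 below all of them, against 24.8% and 26.7% of all genes. The 4 markers with no overlap lie at marrow levels of 3 to 4, 4 to 5 and 5 to 6. Of all genes at these levels, 22.4%, 24.0% and 17.1% lay higher without overlap. Cd247 averaged 6.81 ± 0.25 in lamina propria pools and 6.73 ± 0.08 in marrow pools (n = 3 each, SD). T cells also make Batf and Fas, and their part in these values was not tested.

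In the death pathway of FAS, 3 of 8 differences were positive, with a median of -0.10. Cflar, which encodes the inhibitor of caspase activation at the receptor, had 6.10, 4.30 and 8.03 in the lamina propria pools, against 9.67, 9.64 and 9.67 in the marrow pools. All lamina propria pools lay below the marrow pools, and the difference was -3.52 (95% interval -5.42 to -1.61, limma adjusted p = 0.291). In pool 3 alone it was -1.63, beside 0.03 for Fas. Fasl, the ligand, differed by 0.32 at a low level, 4.04 ± 0.19 in lamina propria pools and 3.72 ± 0.08 in marrow pools (n = 3 each, SD). Faim, an inhibitor of FAS-driven death, differed by -0.19 with overlap. In pool 3, 5 of the 8 genes lay below all marrow pools, against 26.7% of all genes. They were the inhibitor genes Cflar and Faim, with Faim2, Fcmr and Fadd. Casp8 and Bid lay inside the marrow range there and Fasl above it. The list thus mixes the pathway with its inhibitors, and its median gives no direction for the pathway.

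Relatives of the members had a median of 0.33, with 18 of 23 differences positive, 7 higher without overlap and 2 lower, against 67.6%, 14.8% and 7.27% of all genes, and a median of 0.06 in pool 3. Bcl6b, a homologue of Bcl6, had 6.94, 7.16 and 5.88 in the lamina propria pools, against 5.35, 5.19 and 5.18 in the marrow pools. All lamina propria pools lay above the marrow pools, a difference of 1.42 (95% interval 0.61 to 2.23, limma adjusted p = 0.299), with 0.64 in pool 3. Junb, a partner of BATF, averaged 7.31 ± 0.51 in lamina propria pools and 6.11 ± 0.20 in marrow pools (n = 3 each, SD), a difference of 1.20 (95% interval 0.51 to 1.89, limma adjusted p = 0.30), with 0.61 in pool 3. Junb is also an immediate early gene. Myb, the relative of Mybl1 that early B cells use, differed by -0.21 and Marcks, a membrane protein of the same kind as BASP1, by -1.13, both lower in every lamina propria pool. Batf3, the macrophage and dendritic cell marker with the highest lamina propria mean, was at 6.38, 6.57 and 5.52, beside 5.52 ± 0.02 as the mean of marrow pools (n = 3, SD). The 9 measured markers of macrophages and dendritic cells, which can make Batf, Fas and Basp1, had 7 positive differences, with 1 gene higher and 1 lower without overlap. The higher one was Csf1r, a macrophage growth factor receptor, at 5.23, 5.22 and 5.58 in the lamina propria pools, beside 4.63 ± 0.10 as the mean of marrow pools (n = 3, SD). It stood 0.95 above the marrow mean in pool 3. The lower one was Cd68, a lysosomal protein, at a difference of -0.71, while Lyz2, the lysozyme of macrophages and granulocytes, overlapped and was at 1.34 in pool 3. The list summed to 371.5 to 490.2 in lamina propria pools and 310 to 418 in marrow pools. Its median difference in pool 3 was 0.01, and the part of these cells was not tested. Of 7 granulocyte markers, 4 had a negative difference, none lay higher without overlap and 1 lay lower, S100a9, a neutrophil protein, at 5.57, 5.63 and 5.30 in the lamina propria pools, against 6.56, 9.26 and 6.68 in the marrow pools. The 7 granulocyte markers summed to 220.5 to 332 in lamina propria pools and 278 to 1062 in marrow pools, with a median difference of -0.43 in pool 3. Elane, a neutrophil protease, averaged 5.75 ± 0.51 in lamina propria pools and 5.20 ± 0.14 in marrow pools (n = 3 each, SD).

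**Figure D4:**
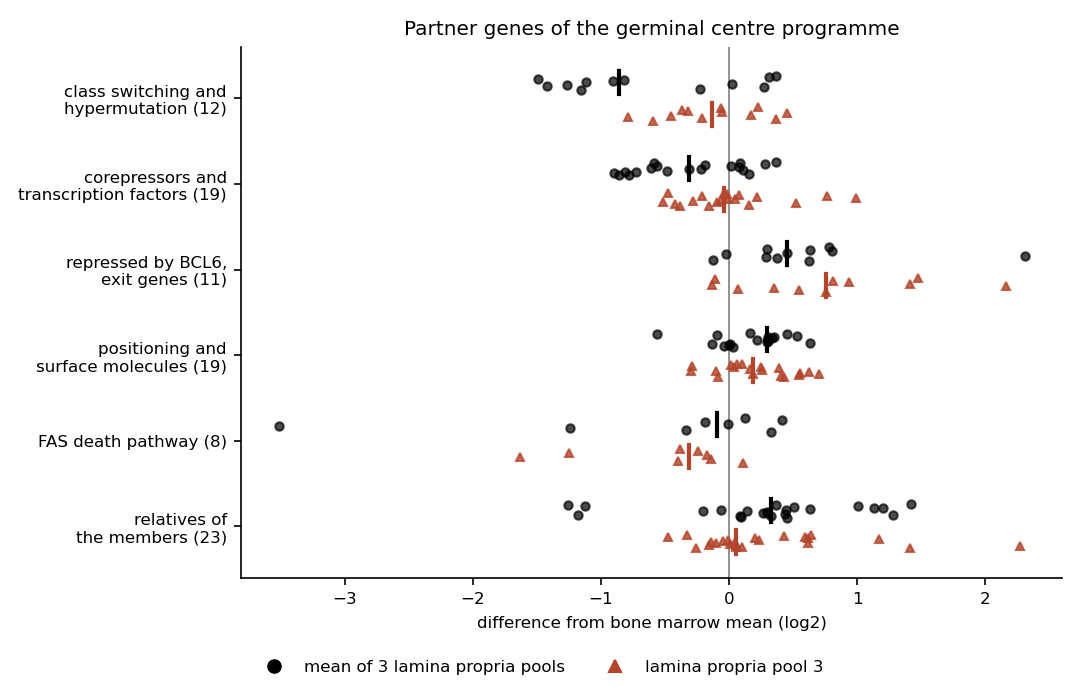
Difference from the bone marrow mean in log2 units for each gene of the 6 partner lists, with the number of genes in brackets, as the mean of 3 lamina propria pools (black dots) and as pool 3 alone (red triangles). Vertical strokes are medians. In pool 3 the genes repressed by BCL6 or of the exit have a median of 0.75. The FAS death pathway list, which includes inhibitors such as Cflar and Faim, has one of -0.31.

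The genes most like the most variable members were picked by Pearson's r over the 6 arrays, which share the split between pools 1 and 2 of the lamina propria and the rest. For Bcl6 they were Mir362, Olfr106-ps and Wdr74, at r = 0.996, 0.982 and 0.982. Wdr74 had 7.50, 6.14 and 6.98 in the lamina propria pools and 6.67, 6.67 and 5.98 in the marrow pools, the same order of pools within the lamina propria as Bcl6. For Mybl1 they were Itga9, Mrpl19 and Cdk5rap2, at r = 0.996, 0.991 and 0.989. With 6 arrays and 19938 genes such values are common, and 25 genes exceeded 0.95 with Bcl6 and 153 with Mybl1.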

How the data were processed

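Per the submitters' processing notes, the authors used Affymetrix Expression Console (version 1.3.0.187) with RMA, which gave the deposited log2 values. RMA in general corrects background, normalizes arrays and sums up each probe set. The deposited log2 distributions still differed in width, with interquartile ranges of 2.00 and 1.94 for lamina propria pools 1 and 2 but at least 2.41 for each other array. Its settings were not stated. Per the labels' protocols, 4.5 to 47 ng of RNA were amplified before labelling.

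Of 35556 probe sets, 21789 had 1 gene symbol in the platform's table and entered the analysis. A gene took its probe set with the highest mean. The 3 lamina propria and 3 bone marrow arrays were compared with lmFit and eBayes of limma 3.58.1 (R 4.3.3; no block, two-sided), adjusted over all 19938 genes, and the fit was tested on simulated data. The number of arrays limits the precision.

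Members and lists were chosen with earlier results of these data known. All members are named. Of each partner list the rule took genes past the threshold or, with none, the 2 largest differences each way without overlap and the highest mean level. Of each marker list it took the highest lamina propria mean. Prdm1 and Mki67 were named in any case. Rag1, Rag2, Dntt, Jchain, Csf1r, Cd68, Lyz2 and S100a9 were named after their values were seen, as were Fadd, Faim2, Fcmr, Casp8 and Bid. Promoter sequences came from RefSeq, GRCm38.p6. The labels do not say whether equal pool numbers pair the samples. Deviations from tissue means correlated at 0.131, 0.051 and 0.226 for equal numbers and at -0.211 to 0.133 for unequal ones. Such correlations cannot tell whether 2 pools shared mice. Figures were drawn with matplotlib 3.10.9.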

Additional observations from a re-analysis of the deposited data

How the results depend on the processing

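No member passed in any alternative other than array weights and leaving out lamina propria pool 3, which called 2 members each, Fas (differences of 0.572 and 0.568) and Rgs13 (0.892 and 0.913). Array weights, which gave lamina propria pool 3 a weight of 0.153, called 5586 of all genes and 17 partner genes. Leaving out 1 array gave 0 to 2 members, 0 to 23 partner genes and 0 to 7222 of all genes, the highest without lamina propria pool 3. An intensity trend with robust variances called 40 of all genes and the fit of all probe sets 1. The pool number as a block called 16 (2 higher, 14 lower). None of these were members, and the labels do not say whether the pool numbers pair the samples. Pool 3 alone against the marrow reversed Gcsam (-0.24) and Ung (-0.119), and the cause was not tested. Of 149 values of members under alternatives, 143 kept their direction and their side of the threshold. Part of this count was fixed in advance. With 1 probe set per member, the block, the dim filter, the intensity trend and the probe set choices leave each difference unchanged. So does a threshold of 0.01, which also could not call a member that had not passed at 0.05. A filter on dim genes kept 5 members and dropped Rgs13, Fas, Gcsam and Mybl1. Signal over background was not given for these 4, whose low values limit what their differences show.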
